A study of Homo sapiens with 95 samples.

Results

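ROS1, MET, MST1R, AXL, TYRO3, EPHA2, IGF1R, INSR and DDR1 were followed here as 9 of the 27978 genes counted in 95 libraries. They are receptor tyrosine kinases and were taken by symbol. The set was chosen by the measured difference between CDKN2A and GFP cells, where ROS1 had the largest rise. That choice names no treatment, so the values of the 9 genes in this contrast are given as a description, with no test, for every treatment. Only the dependence of this difference on treatment has a p-value. It comes from the same libraries and is a description too. The libraries came from AALE cells, a line of human bronchial epithelium made immortal, profiled by sparse full length (SFL) sequencing, a pooled RNA-seq method that removes ribosomal RNA. CRISPR knockouts of CDKN2A and FAT1 had as control GFP cells, which received the Cas9-EGFP plasmid PX458 without a guide. Overexpression of NRF2 (gene symbol NFE2L2), FGFR1, NRG1 and PIK3CA had as control cells with the reporter HcRed in an otherwise empty vector. Each of these 8 lines received 24 μg/ml CSC (cigarette smoke condensate), 173 μM BaP (benzo[a]pyrene), 490 μM NNK (a nitrosamine of tobacco) or DMSO, the solvent. Every combination had 3 libraries except FGFR1 with CSC, which had 2. Each perturbation was carried by 1 line as far as the labels show, so a difference from a control cannot be told apart from a difference between lines.

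The libraries held between 287446 and 2116383 counted reads, with a median of 934235. The perturbed gene went the labelled way in every line. CPM is the read count scaled to library size, by plain size for perturbed genes and marker lists and TMM-normalised for other genes. The median was 49.2 CPM of CDKN2A transcript in CDKN2A cells against 104.17 in GFP cells, and 103.86 CPM of FAT1 in FAT1 cells against 383.67. In the other lines it was between 501.1 and 5650.74 CPM of the overexpressed gene, against 17.52 to 209.45 CPM in HcRed cells. All 10 listed markers of airway basal epithelium were detected in every library, with a sum of 5718 to 14898 CPM. Listed markers of leukocytes summed to at most 42.0 CPM and those of endothelium to at most 6.26 CPM. The ciliated cell list was nearly all TUBB4B, while FOXJ1, which defines that cell, was at 0 in 71 of 95 libraries.

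Receptor tyrosine kinases span the cell membrane, bind a ligand outside and phosphorylate tyrosines inside, which recruits adaptors such as SHC1, GAB1 and IRS2. MET and MST1R are the receptors for hepatocyte growth factor and macrophage-stimulating protein, AXL and TYRO3 bind GAS6 and PROS1, and EPHA2 binds ephrin-A ligands on neighbouring cells. IGF1R and INSR bind insulin-like growth factors and insulin, DDR1 binds collagen, and ROS1 is known in lung cancer chiefly as a partner in oncogenic gene fusions.

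All 9 genes had reads, and 8 had at least 1 read in each of the 95 libraries, while ROS1 had a read in 86. Levels between genes were compared per kilobase of the annotated transcript. On that scale MET was the highest, with a median of 57.6 CPM per kb over all libraries and a range of 28.7 to 81.9. EPHA2 followed with 35.6, AXL with 19.8, IGF1R with 18.2, MST1R with 13.7 and INSR with 7.80 CPM per kb. TYRO3, DDR1 and ROS1 were the lowest, with medians of 2.59, 2.13 and 1.18 CPM per kb. The ranges of neighbours in this order overlapped. DDR1 had only 1 to 31 reads a library, and of the 80 protein-coding genes that start within 1 Mb of it 79 had a mean count below 10, against 49.3% of all protein-coding genes, so its counts may not be a usable level. TYRO3 has a near-identical pseudogene, and reads shared with it make its counts uncertain.

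ROS1 (hg19 chr6:117608516-117747105, minus strand) was nearly absent from GFP cells and was highest in CDKN2A cells. With DMSO, the CDKN2A libraries had 94, 69 and 84 ROS1 reads and the GFP libraries 0, 0 and 1. The same contrast with BaP was 47, 24 and 23 reads against 0, 2 and 0. With CSC there were 36, 33 and 36 reads against 1, 4 and 0, and with NNK 34, 81 and 115 against 0, 0 and 0. Every CDKN2A library was above every GFP library of the same treatment. As a ratio of summed reads per counted read, ROS1 was 257-fold higher with DMSO, where the control held 1 read in all. The ratio was 38.3 with BaP, 39.8 with CSC and at least 34.8 with NNK, the last taken against 3 reads in place of the 0 found over the GFP group. ROS1 ranked first of the 2174 genes that passed the same filters with DMSO, with a fitted log2 fold change of 6.87. The next were H19, an imprinted noncoding RNA (41, 46 and 52 reads against 0, 0 and 0), and SLCO4C1, an organic anion transporter (37, 31 and 25 against 0, 1 and 0). Fitted values against groups this close to 0 depend on the small count that voom adds.

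Over BaP, CSC and NNK together, with treatment as a term, summed ROS1 reads were 429 against 7, a ratio of 55.5, and the fitted log2 fold change was 5.40 ± 0.39 (SE, 9 libraries against 9, limma-voom). Leaving out any library or replicate number kept it between 5.02 and 5.98. The fitted value was 5.04 ± 0.75 with BaP, 5.26 ± 0.66 with CSC and 6.05 ± 0.70 with NNK. GFP cells were also low beside the other control. Over the same 3 treatments HcRed cells had 79 ROS1 reads, and the fitted value of GFP against HcRed cells was -2.89 ± 0.40, also a description because the same GFP libraries entered the choice of ROS1. Against HcRed cells, which carry another vector, summed ROS1 reads of CDKN2A cells gave a ratio of 6.05.

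**Figure D1:**
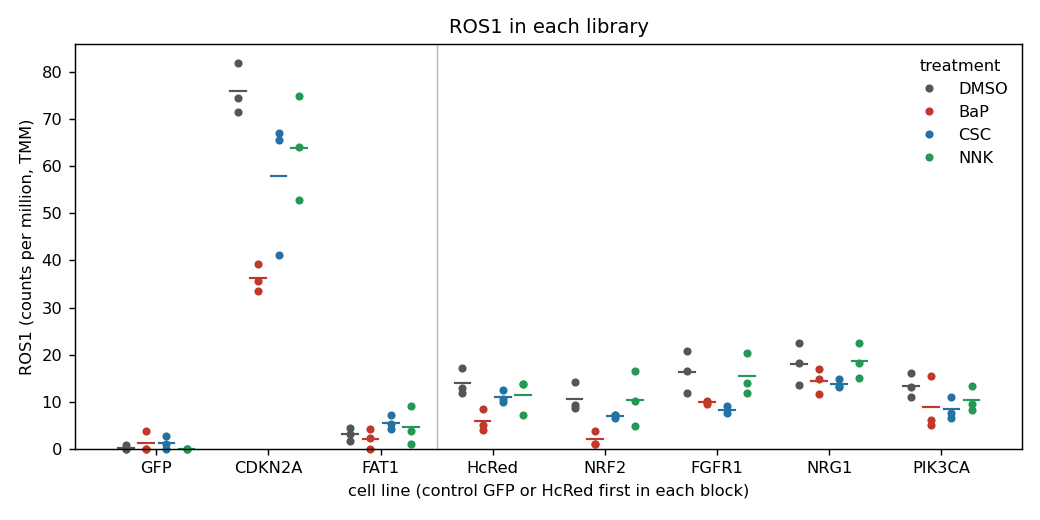
ROS1 in CPM (TMM-normalised, vertical axis) in each of the 95 libraries, by cell line (horizontal axis) and treatment (colour), with short lines at the group means and a grey line between the GFP-controlled and HcRed-controlled blocks. CDKN2A libraries lie between 33.6 and 81.9 CPM, above every library of the other 7 lines, whose highest value is 22.5 CPM.

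Across the lines, ROS1 had a median of 64.8 CPM in CDKN2A cells, with a lowest of 33.6 and a highest of 81.9. NRG1 cells followed with a median of 14.9 CPM (11.6 to 22.5), then FGFR1 with 11.8 (7.58 to 20.9), HcRed with 11.2 (4.04 to 17.2), PIK3CA with 10.3 (5.06 to 16.0) and NRF2 with 7.19 (1.03 to 16.6). FAT1 cells had 4.03 CPM (0 to 9.13) and GFP cells 0 (0 to 3.76). Below CDKN2A, the ranges of neighbours in this order overlapped. NRG1 cells exceeded HcRed cells by a log2 fold change of 0.69 ± 0.18 (adjusted p = 0.006753, limma-voom), a call that did not hold without the libraries of replicate 1 (adjusted p = 0.2091). FGFR1, PIK3CA and NRF2 did not pass the test against HcRed, with 0.26 ± 0.19, -0.08 ± 0.19 and -0.52 ± 0.22. FAT1 cells had 30 reads against 7 in GFP cells over the 3 carcinogens, a fitted 1.77 ± 0.46, and 1.15 without the libraries of replicate 1. This comparison shares its GFP libraries with that of CDKN2A and is a description too.

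The nearest tested gene to ROS1 was also higher in CDKN2A cells. DCBLD1, a membrane protein gene whose annotated span ends 27874 bases from that of ROS1, had 65.2 to 125 CPM in CDKN2A cells and 16.4 to 39.4 CPM in GFP cells, with no overlap between the 12 libraries of each. Over BaP, CSC and NNK it was higher by a log2 fold change of 1.70 ± 0.14 (limma-voom). ROS1 was chosen on this contrast, and its neighbours were taken for their position. Their values, calls and shares are therefore a description. Of the 16 other genes that start within 1 Mb of ROS1, 7 had enough reads to test and 6 were higher in CDKN2A cells, where 26.0% of all tested genes were called higher. These were DCBLD1, GOPC (0.50 ± 0.08), KPNA5 (0.53 ± 0.21), RWDD1 (0.44 ± 0.13), ZUP1 (0.42 ± 0.15) and NUS1 (0.35 ± 0.15). RSPH4A, with 151 reads in all libraries, had -0.65 ± 0.49 and was not called. With DMSO, DCBLD1, GOPC and ZUP1 were called higher, where 18.9% of all genes were. KPNA5, RWDD1, NUS1 and RSPH4A were not called with DMSO. The annotated spans of DCBLD1 and GOPC overlap by 9590 bases on opposite strands, and no strand setting is stated for the counting, so reads of that stretch cannot be told apart.

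**Figure D2:**
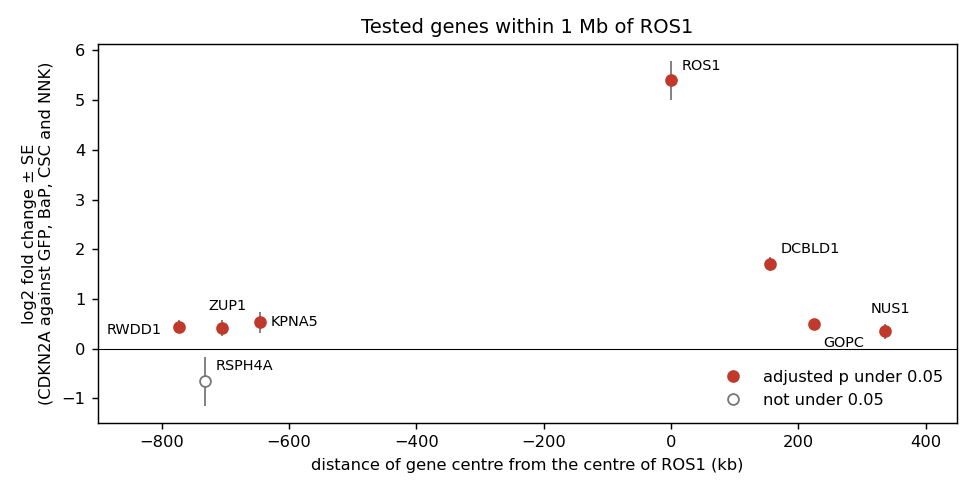
Log2 fold change of CDKN2A against GFP cells over BaP, CSC and NNK (vertical axis, bars are SE, limma-voom) for ROS1 and the 7 tested genes around it, by distance of the gene centre from that of ROS1 in kb (horizontal axis), filled where the adjusted p is under 0.05. ROS1 stands at 5.40 and DCBLD1 at 1.70, while the 5 other filled genes lie between 0.35 and 0.53. ROS1 was chosen on this contrast, so the values are a description.

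DCBLD1 was also the gene whose level was most like that of ROS1. Over the means of the 32 conditions its log2 CPM had a Pearson correlation of 0.917 with that of ROS1, the highest of 10061 genes, and 0.907 over the 28 conditions without CDKN2A cells. The next were PDIA6, a protein disulfide isomerase, with 0.886, PLOD2, a lysyl hydroxylase of collagen, with 0.880, EPDR1 with 0.878 and BICD1 with 0.876. Without CDKN2A cells these fell to between 0.744 and 0.791. The 28 conditions still hold GFP cells, the other side of the contrast that chose ROS1, where ROS1 had a median of 0 CPM. DCBLD1 had a median of 26.6 CPM in GFP cells, against 59.7 over all lines other than CDKN2A. The part of GFP cells in these correlations was not tested. The conditions share lines and libraries of unequal depth, so these values describe the 32 means and were not tested.

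The other receptors did not follow 1 pattern in CDKN2A cells. Over BaP, CSC and NNK, 4 of the 9 genes were past the threshold above GFP cells (ROS1, EPHA2, AXL and INSR), 3 below (MST1R, MET and DDR1) and 2 in neither direction (TYRO3 and IGF1R), where 50.9% of all 14277 tested genes were called, 26.0% higher and 25.0% lower. The choice of the genes used this contrast, so nothing is read from that count. The median log2 fold change of the 9 was 0.19, against 0.01 over all genes. With DMSO the fitted log2 fold change was 1.53 for EPHA2, 0.87 for AXL, 0.40 for INSR and -0.30 for MET, and between -0.07 and 0.27 for MST1R, TYRO3, IGF1R and DDR1, in a contrast where 37.2% of all genes were called.

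EPHA2 had the largest difference after ROS1. With BaP it was 240, 207 and 270 CPM in CDKN2A cells and 75.2, 84.7 and 84.0 in GFP cells. With CSC the values were 263, 258 and 270 against 181, 159 and 149, and with NNK 338, 216 and 262 against 91.2, 82.1 and 123. CDKN2A libraries were above GFP libraries in each treatment, and the gap was narrowest with CSC. The pooled log2 fold change was 1.15 ± 0.10. It was 1.59 ± 0.14 with BaP, 0.72 ± 0.10 with CSC and 1.42 ± 0.15 with NNK. The line by treatment term had an adjusted p = 0.01066 (limma-voom), and 1.02% of all genes passed that term. Its libraries entered the choice of the genes, so this value is a description.

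AXL, a receptor linked to invasion and drug tolerance in epithelial tumours, ranged from 97.3 to 136 CPM in the 12 CDKN2A libraries, with a median of 121, and from 46.7 to 86.1 in the GFP libraries, with a median of 68.7. The groups did not overlap in any treatment, and the pooled log2 fold change was 0.79 ± 0.10. INSR had 98.4 to 135 CPM in CDKN2A and 71.7 to 101 in GFP libraries, without overlap within a treatment, and a log2 fold change of 0.53 ± 0.09. Its close relative IGF1R differed little, with medians of 211 and 220 CPM and a log2 fold change of -0.05 ± 0.07.

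MET went the other way, and its difference also varied between treatments. With CSC it was 324.6, 329.6 and 391.5 CPM in CDKN2A cells against 545, 556 and 559 in GFP cells, which left a clear gap. With BaP it was 382, 332 and 359 against 390, 452 and 381, where the groups overlapped. The log2 fold change was -0.62 ± 0.08 with CSC, -0.14 ± 0.09 with BaP and -0.16 ± 0.09 with NNK, where 15.3% of all genes were called lower with CSC. The line by treatment term had an adjusted p = 0.01696 (limma-voom), a description as for EPHA2. The pooled value was -0.32 ± 0.06.

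MST1R, the closest relative of MET, had a median of 53.5 CPM in CDKN2A and 72.0 in GFP libraries and differed by -0.47 ± 0.11 on the log2 scale, while with DMSO the difference was 0.02 ± 0.17. DDR1 had -0.69 ± 0.27, from 2 to 17 reads a CDKN2A library. It was not past the threshold in 7 fits that left out a single library. TYRO3 had 0.19 ± 0.17. Basal markers summed to a median of 7974 CPM in CDKN2A and 8987 CPM in GFP libraries, and their part in these differences was not tested.

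Knockout of FAT1, a large cadherin, was compared with the same GFP libraries. These libraries entered the choice of the 9 genes, so the values of this comparison are a description. Of the 9 genes 1 was higher (ROS1), 2 were lower and 6 did not pass, where 40.9% of all genes were called, 19.7% higher and 21.2% lower. With DMSO, as a description, ROS1 had a fitted 2.39 and TYRO3 -0.87, in a contrast where 26.3% of all genes were called. TYRO3 had a median of 15.0 CPM (8.73 to 23.7) in FAT1 cells and 24.5 (17.7 to 39.0) in GFP cells, with overlap in CSC and NNK. Its log2 fold change was -0.71 ± 0.19. INSR was lower by -0.26 ± 0.10, but was not past the threshold with the DMSO libraries added (-0.15). It was also not past it in 5 fits that left out a single library. AXL had -0.03 ± 0.11 and EPHA2 0.07 ± 0.09, neither past the test. The difference between the knockouts was not tested.

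The controls themselves differed, in fits that are a description because the GFP libraries entered the choice of the 9 genes. GFP against HcRed cells over BaP, CSC and NNK gave 3 of 9 genes higher and 3 lower, where 38.6% of all genes were called, 18.7% higher and 19.9% lower. MET (0.28 ± 0.05), INSR (0.41 ± 0.10) and DDR1 (0.68 ± 0.25) were higher in GFP cells, and ROS1, EPHA2 (-0.57 ± 0.08) and MST1R (-0.24 ± 0.09) were lower. Without the libraries of replicate 2 3 of the 9 passed, and INSR, DDR1 and MST1R did not. Leaving out a single library also ended the call of MST1R in 7 fits and that of DDR1 in 6. Fits of a perturbed line were therefore made only against its own control. Levels and the ROS1 ratio set across the blocks are descriptions.

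**Figure D3:**
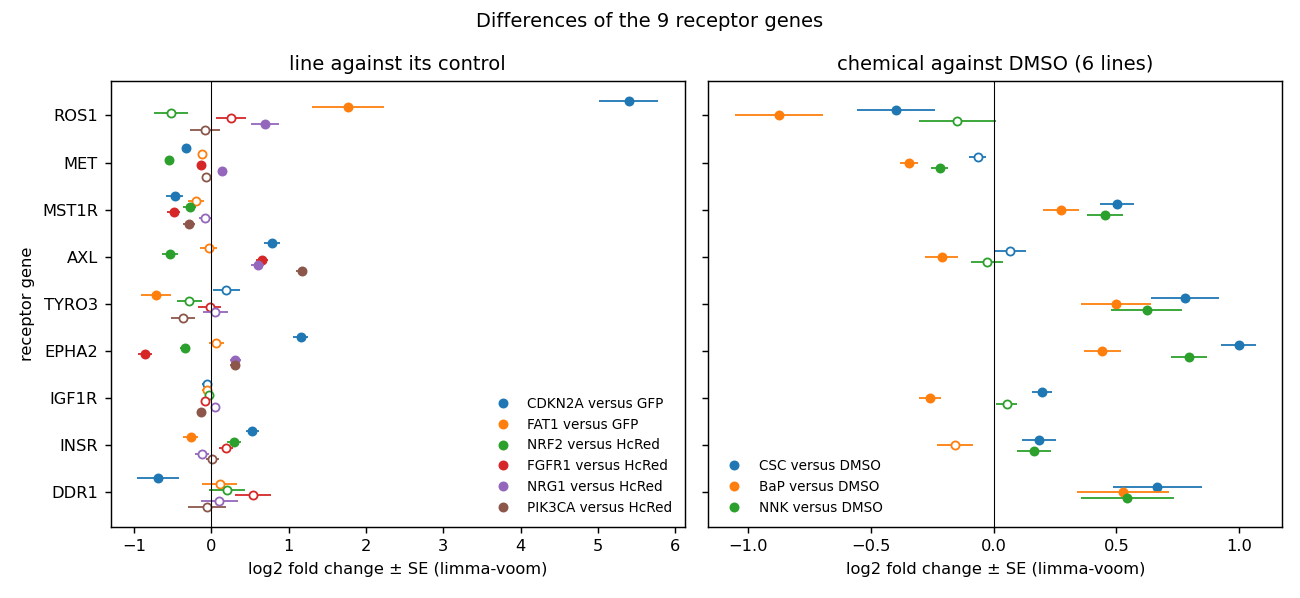
Log2 fold changes (horizontal axes, bars are SE, limma-voom) of the 9 receptor genes (vertical axis), left for each line against its control, over BaP, CSC and NNK for the GFP-controlled lines and over all 4 treatments for the others, right for each chemical against DMSO over 6 lines. Filled points have an adjusted p under 0.05, and the 2 panels have different scales: ROS1 reaches 5.40 on the left, and EPHA2 reaches 0.999 on the right. The CDKN2A and FAT1 points are a description, since their GFP libraries entered the choice of genes.

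Among the overexpressing lines, AXL passed the test in each of the 4, higher in 3 and lower in NRF2 cells. Its median was 181 CPM in PIK3CA cells (141 to 200), 131 in FGFR1 cells (98.4 to 145) and 121 in NRG1 cells (88.2 to 150), against 79.2 in HcRed cells (52.3 to 117) and 52.3 in NRF2 cells (26.8 to 82.3). PIK3CA libraries lay above HcRed libraries in all 4 treatments. The log2 fold change was 1.17 ± 0.07 for PIK3CA (adjusted p = 1.213e-23), 0.66 ± 0.08 for FGFR1 (adjusted p = 2.941e-10) and 0.60 ± 0.08 for NRG1 (adjusted p = 1.238e-07), and -0.53 ± 0.10 for NRF2 (adjusted p = 1.957e-05, limma-voom). Within single treatments, AXL was called in 4 of 4 for PIK3CA and FGFR1, where 1.42% to 10.3% of all genes were called, in 3 of 4 for NRG1 and in 2 of 4 for NRF2.

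EPHA2 split these lines differently. FGFR1 cells had a median of 74.8 CPM (43.2 to 125) and HcRed cells 157 (84.4 to 229), and FGFR1 libraries were below HcRed libraries in each treatment, with a log2 fold change of -0.86 ± 0.08 (adjusted p = 6.618e-13). NRF2 cells were also lower over the 4 treatments (-0.34 ± 0.07, adjusted p = 0.0001025), with 0.09 ± 0.14 under DMSO, -0.60 ± 0.13 under BaP, -0.37 ± 0.11 under CSC and -0.38 ± 0.13 under NNK, whereas NRG1 (0.31 ± 0.07) and PIK3CA cells (0.30 ± 0.06) were higher, with medians of 199 and 191 CPM. For NRG1 the call did not hold without the libraries of replicate 1 or of replicate 2. AXL and EPHA2 went the same way in PIK3CA, NRG1 and NRF2 cells and opposite ways in FGFR1 cells.

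MET was lowest in NRF2 cells, at 284 CPM (196 to 334) against 394 in HcRed cells (280 to 483), and NRF2 libraries lay below HcRed libraries in all 4 treatments. The log2 fold change was -0.55 ± 0.05 (adjusted p = 1.637e-14), and each treatment passed the test by itself. Its values in FGFR1 (-0.14 ± 0.05) and NRG1 cells (0.13 ± 0.05) passed narrowly, and were lost without single libraries in 11 and 19 fits. MST1R was lower in FGFR1 (-0.48 ± 0.09), PIK3CA (-0.29 ± 0.08) and NRF2 cells (-0.28 ± 0.09) and had -0.07 ± 0.09 in NRG1 cells. Its calls did not hold without the libraries of replicate 1 for PIK3CA, nor without those of replicate 1 or 3 for NRF2.

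In total NRF2 cells had 1 of the 9 genes higher (INSR, 0.29 ± 0.09, not past the test without the libraries of replicate 2) and 4 lower, where 21.7% of all genes were called, 10.5% higher and 11.2% lower. FGFR1 cells had 1 higher and 3 lower, with 13.4% of all genes called, 7.25% higher and 6.19% lower. NRG1 cells had 4 higher and 0 lower (10.8% of genes called, 5.83% higher and 4.92% lower), a count that fell to 1 without the libraries of replicate 1 and to 2 without those of replicate 2. PIK3CA cells had 2 higher and 2 lower (27.8%, 14.0% higher and 13.8% lower), the second lower gene being IGF1R with -0.13 ± 0.05, a call lost without single libraries in 14 fits. None of the 9 genes passed the line by treatment term for any of the 4 lines or for FAT1, a term passed by 0.216% of all genes for FAT1, 0.365% for NRF2, 0.0349% for FGFR1, 0.0774% for NRG1 and 0.181% for PIK3CA (limma-voom). At an unadjusted p under 0.05 there were 2 for FAT1, 4 for NRF2, 1 for NRG1 and 0 for FGFR1 and PIK3CA. Nothing is read from these counts, as the share of all genes at that level is not given here. At the adjusted threshold edgeR also called 0 for each of the 5.

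**Figure D4:**
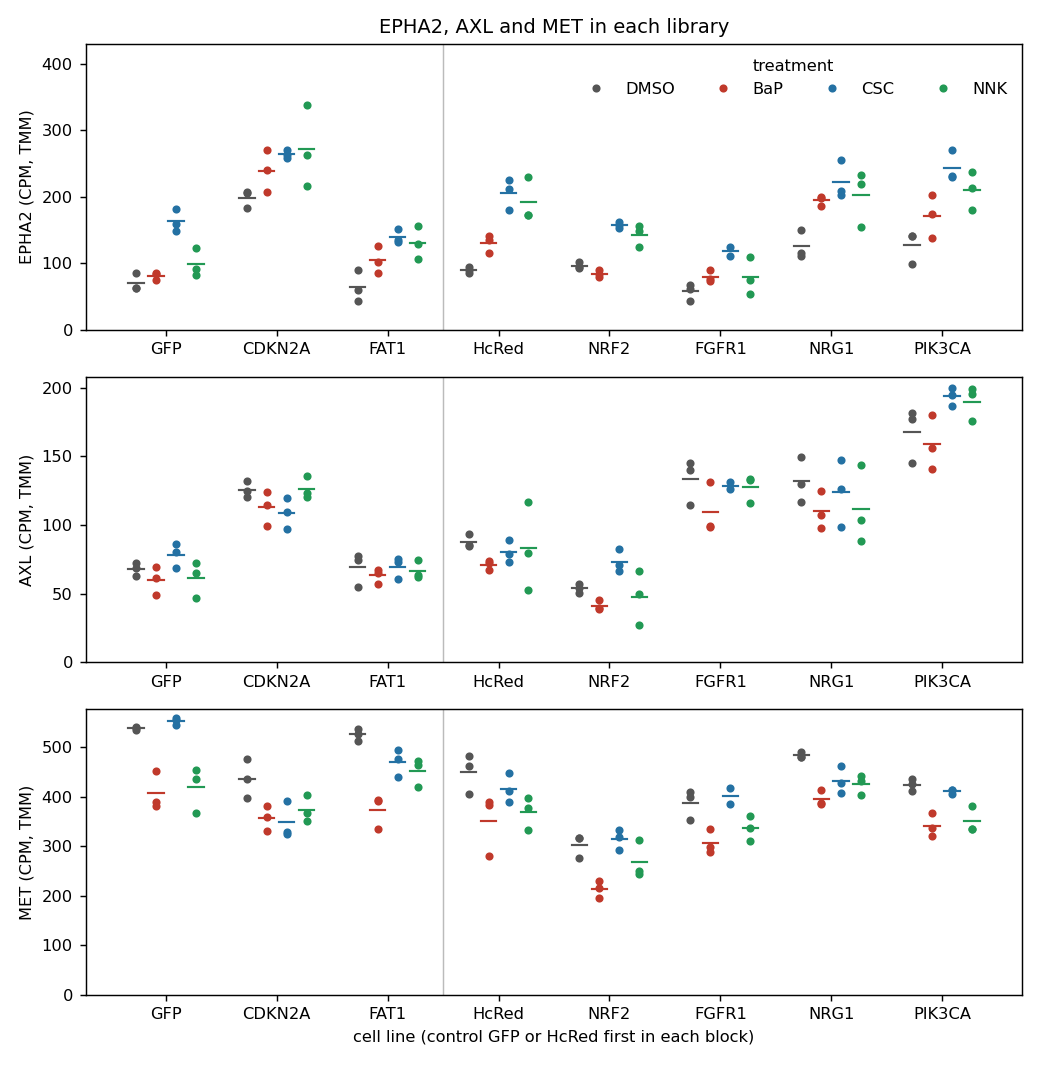
EPHA2, AXL and MET in CPM (TMM-normalised, vertical axes from 0) in each library, by cell line (horizontal axis) and treatment (colour), with short lines at the group means and a grey line between the GFP-controlled and HcRed-controlled blocks. PIK3CA libraries have the highest AXL (median 181 CPM), CDKN2A libraries the highest EPHA2 (median 249 CPM) and NRF2 libraries the lowest MET (median 284 CPM).

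The chemicals were compared with DMSO over the 6 lines other than CDKN2A and GFP, with line as a term. EPHA2 rose with CSC and NNK, and with BaP unless GC content was corrected for. In DMSO libraries of all 8 lines it ranged from 43.2 to 207 CPM with a median of 92.9, and the median was 121 with BaP, 181 with CSC and 156 with NNK. CSC libraries were above the DMSO libraries of the same line in 6 of 6 lines, and NNK libraries in 5 of 6. The log2 fold change was 0.999 ± 0.071 with CSC (adjusted p = 3.139e-24), 0.80 ± 0.07 with NNK (adjusted p = 9.409e-17) and 0.44 ± 0.08 with BaP (adjusted p = 6.569e-07, limma-voom). After the correction for GC content and length given below these became 0.61, 0.43 and 0.08, and the last no longer passed (adjusted p = 0.4928). With BaP the NRF2 cells were the exception, with a mean of 83.8 CPM against 95.9 with DMSO and no overlap.

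Of the 9 genes 6 rose and 1 fell with CSC, where 49.0% of all genes were called, 24.9% higher and 24.2% lower. With BaP 4 rose and 4 fell (42.9%, 22.0% higher and 20.9% lower), and with NNK 5 rose and 1 fell (45.1%, 22.9% higher and 22.2% lower). The count was 4 with CSC without the libraries of replicate 1, and 5 with BaP without those of replicate 2. TYRO3 rose with each, by 0.78 ± 0.14 with CSC, 0.62 ± 0.14 with NNK and 0.50 ± 0.14 with BaP on the log2 scale, the last not past the test without the libraries of replicate 2, and its mean was above DMSO in 6 of 6 lines for each chemical. MST1R also rose with each, by 0.50 ± 0.07, 0.45 ± 0.07 and 0.27 ± 0.07 with CSC, NNK and BaP, and in 6 of 6 lines, but the correction for GC content given below ended these calls and turned the last to -0.09. DDR1 was called higher with each, from few reads, and INSR with CSC (0.19) and NNK (0.16), the latter not past the test in 49 of 74 fits that left out libraries. The median of the 9 was 0.20 with CSC, -0.16 with BaP and 0.16 with NNK, against -0.00 to 0.01 over all genes.

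BaP lowered 4 receptors. MET had a median of 363 CPM with BaP (196 to 452) and 450 with DMSO (276 to 542), and in 8 of 8 lines every BaP library was below every DMSO library. Its log2 fold change was -0.35 ± 0.04 with BaP (adjusted p = 3.396e-14) and -0.22 ± 0.04 with NNK (adjusted p = 1.926e-07), and -0.06 ± 0.03 with CSC, which did not pass. IGF1R fell with BaP by -0.26 ± 0.04 (adjusted p = 6.151e-07), with no overlap in 5 of 6 lines, and rose with CSC by 0.20 ± 0.04 (adjusted p = 2.339e-05). AXL fell with BaP by -0.21 ± 0.07 (adjusted p = 0.006177), a call not kept without the libraries of replicate 2.

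The mean of ROS1 was lower with BaP in 6 of 6 lines, and every BaP library was below every DMSO library in 3 of the 6. Its mean went from 14.0 to 5.82 CPM in HcRed cells, from 10.7 to 1.98 in NRF2 cells, from 16.4 to 9.92 in FGFR1 cells and from 18.1 to 14.4 in NRG1 cells. The log2 fold change was -0.88 ± 0.18 (adjusted p = 2.843e-05, limma-voom). In CDKN2A cells, which were outside this fit, the mean was 76.0 CPM with DMSO and 36.2 with BaP, without overlap. In GFP cells, also outside it, the mean was 0.26 CPM with DMSO and 1.255 with BaP, from 1 and 2 reads. CSC gave -0.40 ± 0.16 (adjusted p = 0.0314), which did not hold without any 1 of 3 FGFR1 libraries or without replicate 1 or 3, and NNK -0.15 ± 0.16, which did not pass.

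GC content moved with these chemical differences. The transcripts of EPHA2, MST1R and DDR1 have 60.3%, 59.9% and 61.6% GC, and those of ROS1 and MET 41.7% and 43.5%. With each library's trend with GC content and length removed, the share of all genes called fell to 28.7% for CSC, 19.4% for BaP and 12.8% for NNK. EPHA2 then kept its calls with CSC (adjusted p = 1.826e-13) and NNK (adjusted p = 8.42e-07) but not with BaP, and TYRO3 kept all 3. MST1R and DDR1 kept none, and MST1R turned to -0.09 with BaP. MET, IGF1R, AXL and ROS1 remained lower with BaP, by -0.23, -0.33, -0.41 and -0.72, whereas ROS1, IGF1R and INSR lost their calls with CSC. What part of the difference between the fits is GC content in the sequencing was not tested. The ciliated cell list, nearly all TUBB4B, had a median sum of 452 CPM with DMSO and 584 to 666 CPM with the chemicals. The fibroblast list, nearly all COL1A1, with COL3A1 at 0 in 93 of 95 libraries, had 16.8 CPM against 28.0 to 34.2 CPM, and the leukocyte list 13.0 against 15.0 to 26.1 CPM. The part of these lists was not tested.

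Promoter windows of these genes were searched for the AhR core GCGTG, since BaP is a ligand of the aryl hydrocarbon receptor, for the antioxidant response element TGACNNNGC, bound by NRF2, and for the AP-1 site TGANTCA, on both strands. RefSeq windows of 300 bases (250 before and 50 after the start of the gene, GRCh38.p14) matched all 9 genes, with 18 windows in all. The AhR core was in at least 1 window of 6 genes (MET, AXL, TYRO3, EPHA2, IGF1R and DDR1) and in 38.9% of the 18 windows, against 36.5% of 35116 windows of all genes. The antioxidant response element was in windows of AXL and TYRO3, 11.1% of the 18 windows, against 13.3% of all windows. The AP-1 site was in windows of TYRO3 and DDR1, also 11.1% of the 18, against 7.71% of all windows. Windows of 3 genes are shown, on the strand of the gene and with matches in capitals: ROS1, which fell with BaP and holds none of the 3 (chr6:117425893-117426192, minus strand), EPHA2, which rose with CSC and NNK and holds 1 AhR core (chr1:16156020-16156319, minus strand), and IGF1R, which fell with BaP and holds 4 (chr15:98648289-98648588, plus strand).
ROS1: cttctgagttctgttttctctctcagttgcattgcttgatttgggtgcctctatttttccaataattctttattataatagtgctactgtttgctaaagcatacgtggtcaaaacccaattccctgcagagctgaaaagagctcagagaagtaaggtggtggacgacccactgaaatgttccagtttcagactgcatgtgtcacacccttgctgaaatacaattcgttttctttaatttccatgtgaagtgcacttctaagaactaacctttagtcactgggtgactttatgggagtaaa
EPHA2: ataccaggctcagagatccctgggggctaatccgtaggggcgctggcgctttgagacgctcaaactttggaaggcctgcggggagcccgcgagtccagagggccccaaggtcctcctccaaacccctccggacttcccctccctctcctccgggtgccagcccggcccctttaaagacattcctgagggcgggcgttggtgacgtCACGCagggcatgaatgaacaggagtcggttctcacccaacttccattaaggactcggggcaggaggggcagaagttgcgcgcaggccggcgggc
IGF1R: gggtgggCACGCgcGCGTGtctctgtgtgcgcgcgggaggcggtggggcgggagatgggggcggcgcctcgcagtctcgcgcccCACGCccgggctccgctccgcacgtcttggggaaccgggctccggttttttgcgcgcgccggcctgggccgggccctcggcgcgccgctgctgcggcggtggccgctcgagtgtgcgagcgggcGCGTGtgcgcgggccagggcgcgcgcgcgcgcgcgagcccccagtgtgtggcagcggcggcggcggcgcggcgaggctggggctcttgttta
A match is a run of letters and not a site shown to be bound. Of the 4 genes that fell with BaP, MET, IGF1R and AXL hold the AhR core and ROS1 does not, and of the 4 called higher with BaP, TYRO3, which alone kept that call after the correction for GC content, holds it, as do EPHA2 and DDR1, while MST1R does not.

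The rest of the pathway was read from 3 lists: 49 other receptor tyrosine kinases, 28 genes of ligands and their processing and 25 adaptors and negative regulators. In CDKN2A against GFP cells over BaP, CSC and NNK, 11 of 25 tested receptors were higher and 7 lower, with a median log2 fold change of 0.27. Of all tested genes 26.0% were called higher and 25.0% lower. The lists were chosen with earlier results of these data known, so these values are a description. LMTK3, a lemur kinase, was 3.81 ± 0.39 higher, EPHB2, a receptor for ephrin-B, was 2.10 ± 0.18 higher, and ERBB3, the neuregulin receptor, fell by -1.27 ± 0.14. Of 19 ligand genes 5 were higher and 5 lower, with IGFBP2, which binds insulin-like growth factors, at -2.84 ± 0.22, IGFBP4 at 1.65 ± 0.32 and IGFBP7 at 1.28 ± 0.14. Of 25 adaptors and regulators 9 were higher and 6 lower, and the largest were IRS2, an adaptor of INSR and IGF1R (1.15 ± 0.08), SOCS3 (0.92 ± 0.25) and CBL, a ubiquitin ligase that removes active receptors (0.90 ± 0.09).

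In FAT1 cells 6 of 22 receptors were higher and 6 lower, 6 of 19 ligand genes higher and 5 lower, and 6 of 25 adaptors higher and 6 lower. Of all tested genes 19.7% were called higher and 21.2% lower. ERBB2 was higher (0.67 ± 0.08), EPHB3 lower (-0.68 ± 0.16) and IRS2 higher (0.81 ± 0.08). In GFP against HcRed cells the counts were 6 and 6 of 22, 5 and 4 of 19, and 3 and 10 of 25, and EPHB2 was lower (-1.70 ± 0.18). The shares of all tested genes were 18.7% higher and 19.9% lower.

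NRF2 cells had 4 of 22 receptors higher and 2 lower, FGFR1 cells 2 of 24 higher, FGFR1 itself included, and 6 lower, NRG1 cells 1 of 23 higher and 5 lower, and PIK3CA cells 2 of 25 higher and 11 lower. The shares of all genes called higher and lower were 10.5% and 11.2% for NRF2 and 7.25% and 6.19% for FGFR1. They were 5.83% and 4.92% for NRG1 and 14.0% and 13.8% for PIK3CA. FGFR2 and FGFR3 were lower in NRG1 cells (-1.08 ± 0.16 and -0.89 ± 0.09) and in PIK3CA cells (-1.39 ± 0.16 and -0.59 ± 0.08), and FGFR3 was higher in NRF2 cells (0.74 ± 0.07). ERBB3 fell in NRG1 cells, which overexpress its ligand, by -0.68 ± 0.11. The ligand list had 3 higher and 3 lower of 18 in NRF2, 4 and 1 of 19 in FGFR1, 2 and 4 of 18 in NRG1 and 4 and 6 of 18 in PIK3CA cells, and IGFBP2 was at 1.24 ± 0.08 in NRF2 and -1.06 ± 0.12 in NRG1 cells. Of 25 adaptors 3 and 5, 1 and 3, 2 and 1, and 6 and 3 were higher and lower in the same order of lines, and IRS2 was higher in NRG1 cells (0.73 ± 0.06).

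With CSC 10 of 24 other receptors rose and 1 fell, with BaP 7 and 1, and with NNK 10 and 1. In the same order, 24.9%, 22.0% and 22.9% of all genes were called higher, and 24.2%, 20.9% and 22.2% lower. The list counts for the chemicals come from fits without the correction for GC content and were not repeated with it. That correction lowered the share of all genes called to 28.7%, 19.4% and 12.8%, so nothing is read from the direction of the list counts. FGFR2 fell with CSC (-0.62 ± 0.11) and BaP (-0.46 ± 0.11), while ERBB2 rose with BaP (0.41 ± 0.06) and NNK (0.48 ± 0.06) and EPHB2 rose with CSC (0.47 ± 0.10) and NNK (0.61 ± 0.10). LMTK3 rose with each, by 0.59 ± 0.17, 0.75 ± 0.17 and 0.78 ± 0.17 with CSC, BaP and NNK, though it was -0.09 with CSC after the correction for GC content. Of 19 ligand genes 7 rose with each chemical and 2, 4 and 2 fell. ST14, the protease matriptase that activates hepatocyte growth factor, rose by 0.53 ± 0.06, 0.39 ± 0.06 and 0.50 ± 0.06, with -0.03 for BaP after that correction, and ADAM10, which sheds receptors and ligands, fell with BaP by -0.50 ± 0.05. Of 25 adaptors 10, 7 and 9 rose and 5, 4 and 4 fell, and IRS2 rose with each, by 1.02 ± 0.06, 0.86 ± 0.06 and 0.99 ± 0.06. These counts stand beside the same shares of all genes given above for each comparison.

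The 9 genes did not vary as a group. Over the means of the 32 conditions the log2 CPM of ROS1 had a correlation of 0.558 with AXL and 0.55 with EPHA2, of -0.132 with MET and of -0.275 with MST1R. TYRO3 had 0.503 with EPHA2 and 0.481 with INSR. These are descriptions over 32 means that share lines and treatments.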

How the data were processed

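The authors trimmed adapters with Cutadapt 1.12, checked reads with FastQC 0.11.5, aligned them to hg19 with STAR 2.5.2b with featureCounts then assigning them to RefSeq gene models. They deposited 1 file of whole-number counts per library, with no normalization, and these deposited counts are the only unit used. Strand setting and molecular identifiers are not given in the sources used here. Library sizes were TMM-normalised. Differences were fitted under R 4.3.3 by voom and limma 3.58.1 (2-sided, Benjamini-Hochberg over all tested genes, threshold 0.05), after dropping genes whose mean count over the fit was 1 or less. Line comparisons had treatment as a term, chemical comparisons had line. CPM values use TMM sizes over all 95 libraries. Those of perturbed genes, of marker lists and of the limit of 3 reads use plain library sizes. Alternatives were edgeR 4.0.16 and DESeq2 1.42.0 tests, RLE sizes, other filters, a replicate block, GC content and length correction, other sample sets and leaving out libraries. The scripts were tested on simulated data.

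The 9 genes, the lists and the tests were chosen with earlier results of these data known. The contrast of CDKN2A with GFP cells was fitted with DMSO and with the carcinogens separately. Since the choice of ROS1 names no treatment, neither is used as a test of the 9 genes. The line by treatment term of these lines is a description for the same reason. So are the fits of FAT1 against GFP cells and of GFP against HcRed cells, which use the same GFP libraries. Besides the 9, genes are named when they are a perturbed gene, up to 3 with the largest change per list and comparison among called genes averaging 10 or more reads, the 5 most like ROS1, those within 1 Mb of it or the next 3 rises, of which 1 is not reported here. No 2 libraries of a group agreed within sampling noise. The study calls the libraries of a group biological replicates, and the sources used here do not say whether they came from separate cultures. Gene positions are from GENCODE on GRCh37, which matched 86.9% of the symbols. Ratios of summed reads have counting error, and 3 counts were taken as the limit of a count of 0.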

Additional observations from a re-analysis of the deposited data

Results flagged for a closer look

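The line by treatment term of CDKN2A and GFP cells was past the threshold for 2 of the 9 genes and 1.02% of all genes. It covered BaP, CSC and NNK in 18 libraries (limma-voom, Benjamini-Hochberg over 14277 genes). These libraries entered the choice of the 9 genes, so the values are descriptions. EPHA2 passed with an adjusted p = 0.01066. Its log2 fold change was smaller with CSC (0.72) than with BaP (1.59) or NNK (1.42), and it was above GFP in 3 of 3 treatments. MET passed with an adjusted p = 0.01696, with a log2 fold change of -0.62 with CSC against -0.14 with BaP and -0.16 with NNK. Both calls held with edgeR (adjusted p = 0.0003356 for EPHA2 and 0.01646 for MET), with genes of a mean count of at least 10 (0.01442 and 0.03395) and with the replicate block (0.001602 and 0.01155).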

How the results depend on the processing

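Of 4287 recomputed values of the 9 genes in the 10 pooled comparisons, 4053 kept their direction and their side of the threshold, 195 lost the call, 38 gained one and 1 reversed. Within single treatments 1686 of 1771 values stayed, and of 4510 values of the other named genes 4422 did. Reversals came with the correction for GC content and length, for MST1R with BaP (-0.0947, adjusted p = 0.3695), GAS6 (-0.0746) and LMTK3 (-0.0940) with CSC and ST14 with BaP (-0.0253). That correction took the genes of the 9 called with CSC from 7 to 2 and the calls over all genes from 7021 to 3850 with CSC, from 6147 to 2597 with BaP and from 6453 to 1722 with NNK; the cause was not tested. Leaving out libraries or replicate numbers gave 6 to 7 of the 9 called for CDKN2A, 2 to 4 for FAT1, 3 to 7 for GFP against HcRed, 4 to 6 for NRF2, 3 to 4 for FGFR1, 1 to 4 for NRG1, 3 to 5 for PIK3CA, 4 to 7 for CSC, 5 to 9 for BaP and 4 to 6 for NNK, the lowest counts being without a whole replicate number for GFP against HcRed (replicate 2), NRG1 (1), CSC (1) and BaP (2). The total of 46 calls within single treatments went from 42 to 47. Same-numbered libraries deviated little together (mean correlations up to 0.0346, single ones from -0.265 to 0.258). Numbers were not used to pair samples in the main fits. Such averages over many genes cannot exclude an effect of replicate number on single genes. A replicate block ended the calls of MET in NRG1 cells (0.13, adjusted p = 0.05306) and of INSR with NNK (0.17, adjusted p = 0.05011), and took the genes with a line by treatment term from 52 to 86 for NRF2; edgeR took them from 11 to 21 for NRG1 and from 5 to 3 for FGFR1. At this depth 3 reads of a gene are 1.42 to 10.4 CPM, which limits ROS1 in GFP cells and DDR1 throughout.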
